A study of Mus musculus with 12 samples.

Results

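The proteasome genes examined here are the rows of the count table whose mouse symbol starts with Psma, Psmb, Psmc, Psmd, Psme, Psmf or Psmg followed by a digit and that the annotation calls protein-coding. The rule found 50 genes among 36491 rows, and 4 further rows with such names were pseudogenes and were left out. Of the 50, 49 passed the filter on low counts. The exception was Psmb11, the thymus-specific form of a catalytic subunit, with 29 counts over all 12 libraries. The rule also took in Psmc3ip, whose protein works in meiotic recombination and is not a proteasome subunit, and Psme2b, an intronless copy of Psme2 whose reads may be shared with it.

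RNA-seq was done on CD11b-selected cells, labelled microglia, from the brains of adult male wild-type C57BL/6J mice aged 6 months. All mice, the animals without LPS included, had received a bone marrow transplant and then PLX5622 in food for 2 weeks, a CSF1 receptor inhibitor that depletes microglia, followed by 6 weeks on standard chow. The head was either left unshielded or shielded during the transplant procedure, and cells were taken 6 hours after an intraperitoneal injection of saline or 50 µg of LPS, the lipopolysaccharide of Gram-negative bacteria. This gave 4 groups with 3 libraries each, namely unshielded LPS, unshielded without LPS, shielded LPS and shielded without LPS. Because CD11b marks several kinds of myeloid cell, the selected cells can be resident microglia or macrophages that came from the marrow, and nothing in the labels says whether the libraries of a group are separate animals. P-values therefore measure the spread between these libraries, which may be technical.

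The proteasome is the main protease of the cytosol and nucleus. Its barrel, the 20S core, is built of alpha rings (Psma genes), which gate the entrance, and beta rings (Psmb genes), which hold the catalytic sites Psmb5, Psmb6 and Psmb7. The 19S cap, with ATPases (Psmc) that unfold substrates and non-ATPase subunits (Psmd) that bind and strip ubiquitin, makes the 26S particle. In immune cells and under interferon, Psmb8, Psmb9 and Psmb10 are built in instead of Psmb5, Psmb6 and Psmb7 to give the immunoproteasome, and Psme1 and Psme2 form the PA28 alpha-beta activator. Immunoproteasomes are known for making peptides for MHC class I, and in macrophages their subunits are present without stimulation.

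Total counts per library ran from 18090977 to 60495968. The treatment field of shielded libraries 2 and 3 without LPS says LPS, against their titles, and the groups follow the titles. Acod1, which encodes the itaconate-making enzyme that LPS induces in macrophages, had 83.0 to 145.9 CPM (counts scaled to library size, with TMM factors) in unshielded LPS libraries and 2.02 to 7.75 CPM in unshielded libraries without LPS, and 123.5 to 247.9 CPM in shielded LPS libraries and 1.39 to 2.63 CPM in all 3 shielded libraries without LPS. The microglia markers Tmem119, P2ry12, Cx3cr1, Csf1r, Sall1, Olfml3 and Fcrls summed to 10582 to 11746 CPM in unshielded LPS libraries, 12434 to 14678 CPM in unshielded libraries without LPS, 14850.4 to 17510.5 CPM in shielded LPS libraries and 19321 to 23182 CPM in shielded libraries without LPS. Apoe, Ms4a7, Clec12a, Mrc1 and Pf4 are a list for marrow-derived macrophages. These summed to 80255 to 105319 CPM in unshielded LPS libraries and 58309 to 88722 CPM in unshielded libraries without LPS. In shielded mice the sums were 2601 to 4452 CPM after LPS and 6791 to 23935 CPM without LPS. Apoe made up most of these sums, at log2 CPM 16.26 to 16.65 in unshielded LPS libraries, where Mrc1 was next at 10.65 to 10.98.

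Promoters of 4 genes are shown because the results turn on these genes: Psme3 and Psmb5 from the standard side, Psme2 and Psmb10 from the inducible side. Each is the stretch upstream of the first annotated exon, cut from the RefSeq window of 250 bases before to 50 after the gene's start (build GRCm38.p6), written 5′ to 3′ on the gene's strand. Capitals mark the motif TGACNNNGC, the core of the element read by the proteasome regulator Nfe2l1 (NRF1).
Psme3, chr11:101315963-101316212, plus strand: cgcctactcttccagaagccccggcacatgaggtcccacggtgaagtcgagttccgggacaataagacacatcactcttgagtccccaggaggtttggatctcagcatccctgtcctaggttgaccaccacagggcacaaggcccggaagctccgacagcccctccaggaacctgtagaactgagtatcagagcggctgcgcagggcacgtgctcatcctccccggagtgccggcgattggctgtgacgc
Psme2, chr14:55591114-55591351, minus strand: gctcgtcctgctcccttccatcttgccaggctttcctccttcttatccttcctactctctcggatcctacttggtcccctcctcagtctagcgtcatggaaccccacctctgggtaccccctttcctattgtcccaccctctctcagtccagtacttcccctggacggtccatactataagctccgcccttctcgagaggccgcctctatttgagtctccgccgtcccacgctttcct
Psmb5, chr14:54618023-54618245, minus strand: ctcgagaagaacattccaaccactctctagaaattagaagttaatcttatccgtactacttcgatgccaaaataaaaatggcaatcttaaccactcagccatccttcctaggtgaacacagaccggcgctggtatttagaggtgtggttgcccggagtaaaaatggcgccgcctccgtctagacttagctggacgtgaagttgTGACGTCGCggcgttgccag
Psmb10, chr8:105938445-105938642, minus strand: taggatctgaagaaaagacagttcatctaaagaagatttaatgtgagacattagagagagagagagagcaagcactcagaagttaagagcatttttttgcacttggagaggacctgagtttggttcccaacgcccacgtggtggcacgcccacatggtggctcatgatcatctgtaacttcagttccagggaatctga
The stretch of Psmb5 holds TGACGTCGC, and the other 3 hold none of the motifs searched, on either strand. RefSeq windows were found for 42 of the 50 genes (45 windows). TGACNNNGC was in 13.3% of these windows and in 12.4% of all 32851 windows, and in none of the 6 windows of the immunoproteasome genes. A core of the interferon-response element, GAAA followed after 2 bases by GAAA, was in 11.1% of member windows and 3.44% of all windows, the palindrome TTCNNNGAA in 6.67% and 8.30%, and the NF-kB consensus in 13.3% and 8.46%. The interferon core was in 1 of the 6 immunoproteasome windows and 4 of the 39 other member windows. The palindrome was in 1 and 2 of these, and the NF-kB consensus in 0 and 6. A letter match is a description and does not show binding.

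Together the 50 genes held more of the library after LPS. Their share of all counts was 0.341 to 0.360% in unshielded LPS libraries, against 0.257 to 0.261% in unshielded libraries without LPS. In shielded mice the share was 0.451 to 0.474% after LPS, against 0.279 to 0.287% without LPS. The ranges of the 4 groups did not overlap, and the shielded LPS libraries were the highest.

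In shielded mice LPS raised the RNA of nearly all members. Of the 49 tested genes 47 were higher and none was lower (edgeR's quasi-likelihood test, Benjamini-Hochberg adjusted over 18875 genes, threshold 0.05). No member was lower at an unadjusted p under 0.05 or with DESeq2. Over all genes tested 67.5% were called, 32.4% higher and 35.1% lower. The median log2 fold change of the members was 1.06, against -0.14 over all genes tested. Psmb9 and Psmc3ip were not called, at 0.15 (adjusted p = 0.218) and 0.48 (adjusted p = 0.061). Values of 48 members did not overlap between the shielded LPS libraries and those without LPS, all but Psmb9, where 34.1% of all genes were higher and 35.7% lower without overlap. In bulk RNA, fewer cells of a type and less RNA per cell cannot be told apart. Leaving out the 2 libraries with the conflicting field left 46 higher, without Psma8, and grouping them by the field as LPS left 0 (also 0 at an unadjusted p under 0.05), where 0 genes of the whole table were called.

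The standard catalytic subunits all rose with LPS in shielded mice. Psmb5, the chymotrypsin-like site, had 45.9, 38.7 and 34.9 CPM in shielded LPS libraries, against 17.0, 16.1 and 16.6 CPM in shielded libraries without LPS, a log2 fold change of 1.26 ± 0.10 (SE; adjusted p = 4.10e-07). Psmb6, the caspase-like site, had 146, 143 and 124 CPM in shielded LPS libraries, against 65.6, 63.9 and 63.3 CPM without LPS, and Psmb7, the trypsin-like site, had 102, 100.1 and 95.1 CPM, against 49.2, 45.9 and 41.7 CPM without LPS. Their log2 fold changes were 1.10 and 1.12, and every LPS library lay above every library without LPS for all 3. Psmb7 shares 405 exon bases with Nek6 on the other strand, so its counts are uncertain if strand was not used.

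The inducible partners of these subunits spread more widely. Psmb8, which takes the place of Psmb5, had 134, 110.5 and 108 CPM in shielded LPS libraries, against 84.0, 78.4 and 69.7 CPM in shielded libraries without LPS, a log2 fold change of 0.60 ± 0.11 (SE; adjusted p = 0.000377). Psmb9, which takes the place of Psmb6, had 72.8, 60.1 and 59.1 CPM in shielded LPS libraries, against 61.1, 59.0 and 52.9 CPM without LPS, and the groups overlapped. Psmb10, which takes the place of Psmb7, had 162, 146 and 131 CPM after LPS, against 74.2, 69.4 and 67.7 CPM without LPS, at 1.06 ± 0.10. Psmb8 and Psmb10 thus rose and Psmb9 was not called. With library totals in place of TMM scaling the median of all genes was -0.49, against -0.14 with TMM, and Psmb9 was called lower at -0.20 (adjusted p = 0.0216). With only genes of at least 100 counts on average it was -0.06 and not called.

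Psme3 and Psme2 of the PA28 family had the largest rises. Psme3, which forms the nuclear PA28 gamma ring and is not part of the immunoproteasome, had 228, 198 and 161 CPM in shielded LPS libraries, against 56.2, 57.0 and 52.5 CPM in shielded libraries without LPS, the first of the 49 at 1.82 ± 0.11 (adjusted p = 7.59e-08). Psme2 had 255, 189.8 and 184 CPM, against 65.0, 61.8 and 57.0 CPM without LPS (1.78 ± 0.13). Psme1, its partner in the ring, had 265, 235 and 221 CPM, against 127, 117 and 102 CPM without LPS (1.06 ± 0.10). All 3 were separated without overlap, and shielded LPS library 1 was the highest in each. Psme2b was higher as well, at 1.25. The large activator Psme4 (PA200) and the inhibitor Psmf1 (PI31) rose less, by 0.48 and 0.59 on the log2 scale.

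**Figure D1:**
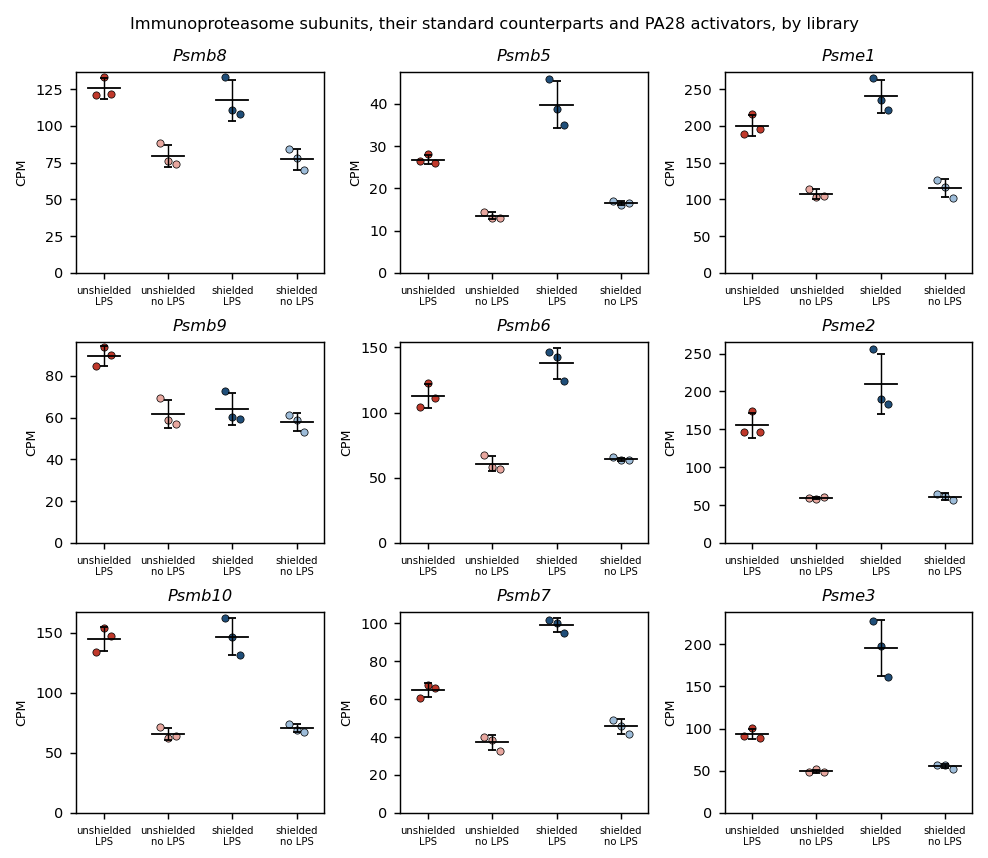
CPM (TMM-scaled, linear axis from 0) of the 3 inducible catalytic subunits (left), their standard counterparts (middle) and the PA28 activators (right) in each of 12 libraries; the bar is the mean and the whisker 1 SD (n = 3 per group). Psmb9 is at 59.1 to 72.8 CPM in shielded LPS libraries, against 52.9 to 61.1 CPM in shielded libraries without LPS, while Psme3 lies at 160.9 to 227.8 CPM, against 52.5 to 57.0 CPM.

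RNA of the standard 26S subunits rose throughout. Taking the 31 subunits of the standard particle (alpha ring, beta ring with the standard catalytic sites, ATPases and non-ATPases), all 31 were higher in shielded LPS mice, from 0.60 for the ATPase Psmc3 to 1.62 for the alpha subunit Psma6, with a median of 1.10. Psma6 had 239.5, 231 and 219 CPM in shielded LPS libraries, against 79.1, 72.8 and 72.9 CPM without LPS. Among the 6 ATPases Psmc5 had the largest value, 1.34, and among the 11 non-ATPases it was Psmd12, a lid subunit, at 1.47, followed by Psmd14, the lid deubiquitinase, at 1.38. In the beta ring Psmb2 was at 1.22 and Psmb1 at 0.61. All 7 assembly chaperones rose, from 0.46 for Psmg3 to 1.13 for Psmd10. Whether replicate numbers pair these 2 groups is not settled. With the number as a block Psmg3 was not called (adjusted p = 0.0953). It was also lost without shielded LPS library 1 or shielded library 1 without LPS. Psma8, a testis form, rose by 0.76, at under 8 CPM in every library.

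In unshielded mice LPS also raised the RNA of most members, and here all 5 immunoproteasome genes rose. Of the 49 tested, 44 were higher and 0 lower (0 lower at an unadjusted p under 0.05 and with DESeq2; edgeR as above), where 43.1% of all genes were called and 24.3% were higher. The median log2 fold change was 0.68, against -0.06 over all genes. Psmd5, Psmg2 and Psmg3, which are assembly chaperones, Psme4 and Psma8 were not called, with log2 fold changes from -0.18 to 0.19. Values of 46 members did not overlap (29.6% of all genes were higher without overlap), and Psma8, Psmg2 and Psmg3 overlapped. Without the 2 conflicting shielded libraries 42 were higher, and with these grouped by the field 0 were (25 at an unadjusted p under 0.05), where 74 genes of the whole table were called higher. Neither library is in this contrast, and they enter it through the shared filter, scaling and estimate of the spread. Psmc3ip and Psmg4 (0.42, adjusted p = 0.0408) were lost when shielded LPS library 2, unshielded LPS library 1 or 2, unshielded library 2 or 3 without LPS, or any shielded library without LPS was left out, and Psmc3ip also without shielded LPS library 1 or unshielded library 1 without LPS.

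The immunoproteasome genes were higher in every unshielded LPS library than in any unshielded library without LPS. Psmb8 had 121, 133 and 122 CPM in unshielded LPS libraries, against 88.3, 76.1 and 74.1 CPM in unshielded libraries without LPS (0.66 ± 0.11; adjusted p = 0.000354). Psmb9 had 84.8, 94.0 and 89.8 CPM, against 69.6, 58.7 and 56.9 CPM without LPS (0.54 ± 0.11; adjusted p = 0.00133). Psmb10 had 134, 154 and 147 CPM, against 71.7, 62.6 and 63.7 CPM without LPS (1.13 ± 0.10). None of these groups overlapped, and the rise of Psmb9 was the smallest of the 5. Psme1 had 189, 217 and 195 CPM in unshielded LPS libraries, against 115, 103 and 105 CPM without LPS (0.90). Psme2 had 146, 174 and 146 CPM, against 59.7, 57.5 and 60.7 CPM without LPS, the largest rise of all members here at 1.39 ± 0.13. Psma6, an alpha ring subunit, followed at 1.27, with 158, 173 and 168 CPM in unshielded LPS libraries, against 73.4, 68.9 and 64.1 CPM without LPS. Psme2b was at 1.15, with 38.9, 46.7 and 38.9 CPM, against 17.5, 19.7 and 18.9 CPM without LPS.

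Their standard counterparts rose as well. Psmb5 had 26.4, 28.0 and 26.1 CPM in unshielded LPS libraries, against 14.5, 13.0 and 13.0 CPM without LPS (0.99 ± 0.10). Psmb6 had 104, 122 and 111 CPM, against 67.1, 58.4 and 56.6 CPM without LPS (0.89 ± 0.09). Psmb7 had 60.4, 67.3 and 66.1 CPM, against 40.2, 38.5 and 32.9 CPM without LPS (0.80 ± 0.09). The 3 sites were again separated without overlap. Psme3 had 91.5, 100.1 and 88.8 CPM in unshielded LPS libraries, against 48.2, 51.5 and 48.4 CPM without LPS, at 0.92 ± 0.11. All 31 standard 26S subunits were higher, from 0.37 for the ATPase Psmc6 to 1.27 for Psma6, with a median of 0.75. Of the 7 assembly chaperones 4 rose, Psmd9, Psmd10, Psmg1 and Psmg4.

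**Figure D2:**
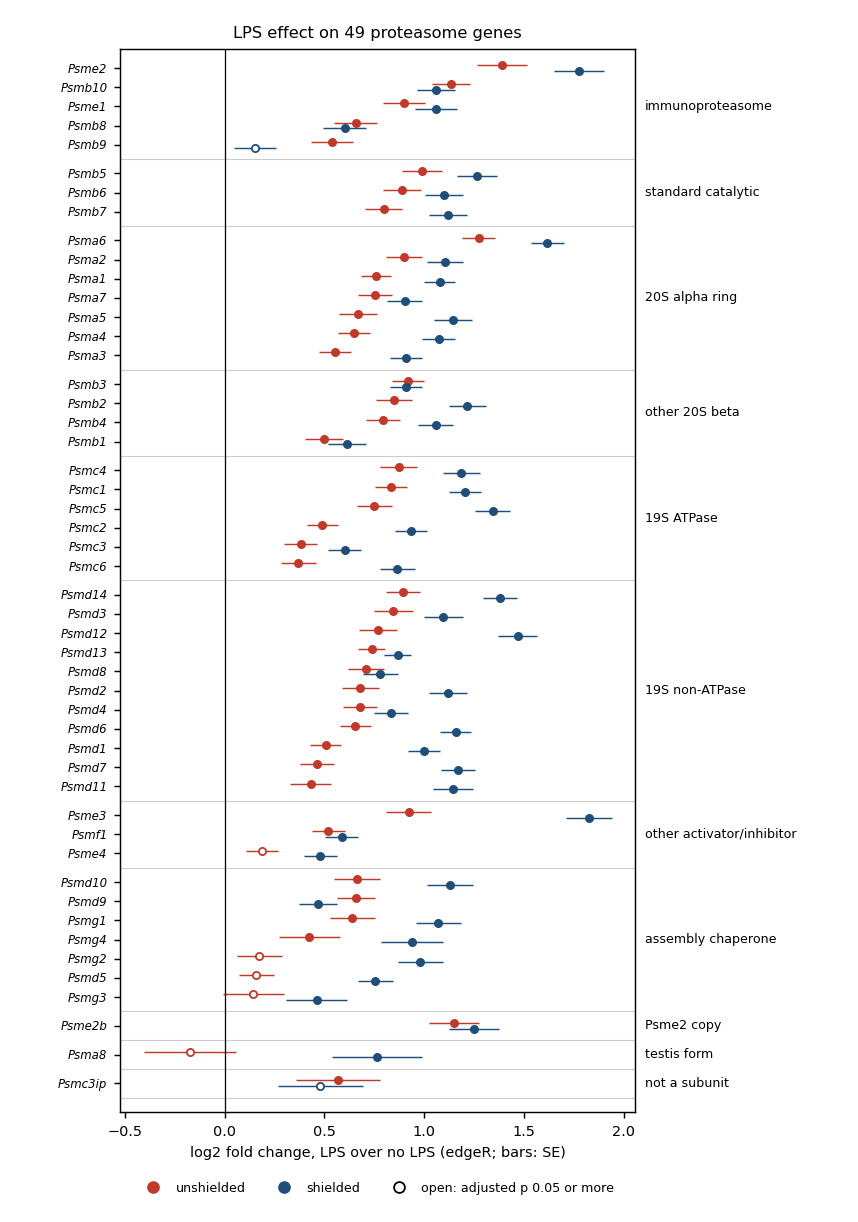
Log2 fold change (LPS over no LPS, edgeR, bars 1 SE) of the 49 tested members, ordered by role, in unshielded (red) and shielded mice (blue); open points have an adjusted p of 0.05 or more. All points but that of Psma8 in unshielded mice lie right of 0, and Psmb9 is the immunoproteasome gene whose shielded value, 0.15, is nearest to 0.

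Markers of the selected cells and of other cells moved with LPS. In shielded mice 5 of 5 marrow-derived markers were lower with LPS, with a median log2 fold change of -2.11, and their sums did not overlap. In unshielded mice 1 of these was higher and 1 lower. Of the 7 microglia markers 4 were lower and 1 higher with LPS in unshielded mice, and 5 were lower and 1 higher in shielded mice. The 4 oligodendrocyte markers (Mbp, Mog, Mag, Mobp) summed to 817 to 1361 CPM in unshielded LPS libraries and 1224.5 to 1549 CPM in unshielded libraries without LPS, and to 311 to 906 CPM in shielded LPS libraries and 1165 to 1779 CPM in shielded libraries without LPS. The 5 neuron markers summed to 80.9 to 147.3 CPM in unshielded LPS libraries and 178.2 to 213.4 CPM in unshielded libraries without LPS, and to 25.7 to 117.3 CPM in shielded LPS libraries and 128.1 to 231.4 CPM in shielded libraries without LPS. With LPS, 4 of 4 oligodendrocyte and 4 of 5 neuron markers were lower in shielded mice, and 0 of either list were called in unshielded mice. The 8 neutrophil markers summed to 275.7 to 1032 CPM after LPS and 51.6 to 158.1 CPM without LPS in unshielded mice, and to 305.7 to 519 CPM after LPS and 163.7 to 386 CPM without LPS in shielded mice. Of the 8, 6 were higher with LPS in unshielded mice and 2 in shielded mice. The 5 monocyte markers summed to 107.6 to 195.9 CPM after LPS and 24.4 to 34.6 CPM without LPS in unshielded mice, and to 66.0 to 123.0 CPM after LPS and 38.4 to 54.4 CPM without LPS in shielded mice. The 5 B cell markers stood at 23.9 to 45.6 CPM after LPS and 244.1 to 290.9 CPM without LPS in unshielded mice, and at 36.9 to 46.6 CPM after LPS and 317.7 to 381.5 CPM without LPS in shielded mice. The monocyte and B cell sums did not overlap in either pair of groups. Against the monocyte sum, Ccr2 of that list was at log2 CPM 2.70 to 2.91 after LPS and 3.63 to 3.96 without LPS in unshielded mice. In shielded mice Ccr2 was at 2.15 to 3.17 after LPS and 4.13 to 4.31 without LPS. The 5 endothelial markers summed to 104.7 to 163.4 CPM after LPS and 206.5 to 230.4 CPM without LPS in unshielded mice, with 3 lower and 1 higher, and to 108.5 to 144.8 CPM after LPS and 144.4 to 244.2 CPM without LPS in shielded mice, with 2 lower and 1 higher. The 5 astrocyte markers summed to 105.8 to 149.7 CPM after LPS and 108.7 to 161.1 CPM without LPS in unshielded mice, with 1 higher, and to 34.5 to 92.1 CPM after LPS and 70.1 to 97.6 CPM without LPS in shielded mice, with 1 higher and 1 lower. The 6 T and NK cell markers summed to at most 4.19 CPM in any library, with Cd3e at 0 in the shielded LPS libraries. The part of these cells in the proteasome results was not tested.

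The inducible subunits did not gain on their counterparts within a library in shielded mice. The mean log2 ratio of Psmb8 to Psmb5 counts was 1.56 ± 0.06 in shielded LPS libraries and 2.22 ± 0.13 in shielded libraries without LPS (SD, n = 3 each), a difference of -0.66. For Psmb9 to Psmb6 it was -1.11 ± 0.12 after LPS and -0.16 ± 0.09 without LPS. For Psmb10 to Psmb7 it was 0.56 ± 0.10 and 0.63 ± 0.06, which overlapped in their libraries. The ratio of Psme1 plus Psme2 to Psme3 was 1.21 ± 0.12 after LPS and 1.67 ± 0.09 without LPS. These ratios do not depend on scaling between libraries and were not tested.

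In unshielded mice the same ratios split. Psmb8 to Psmb5 was 2.22 ± 0.03 in unshielded LPS libraries and 2.55 ± 0.05 in unshielded libraries without LPS, and Psmb9 to Psmb6 was -0.33 ± 0.04 and 0.02 ± 0.03. Psmb10 to Psmb7 was 1.16 ± 0.02 after LPS and 0.83 ± 0.13 without LPS, and Psme1 plus Psme2 to Psme3 was 1.93 ± 0.05 and 1.75 ± 0.11. The first 2 pairs were thus lower after LPS and the last 2 higher, without overlap between libraries. Set between unshielded and shielded LPS libraries, the 4 mean log2 ratios differed by 0.66, 0.78, 0.60 and 0.72, each higher in every unshielded LPS library than in any shielded LPS library. Without LPS the differences were 0.33, 0.18, 0.20 and 0.08.

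**Figure D3:**
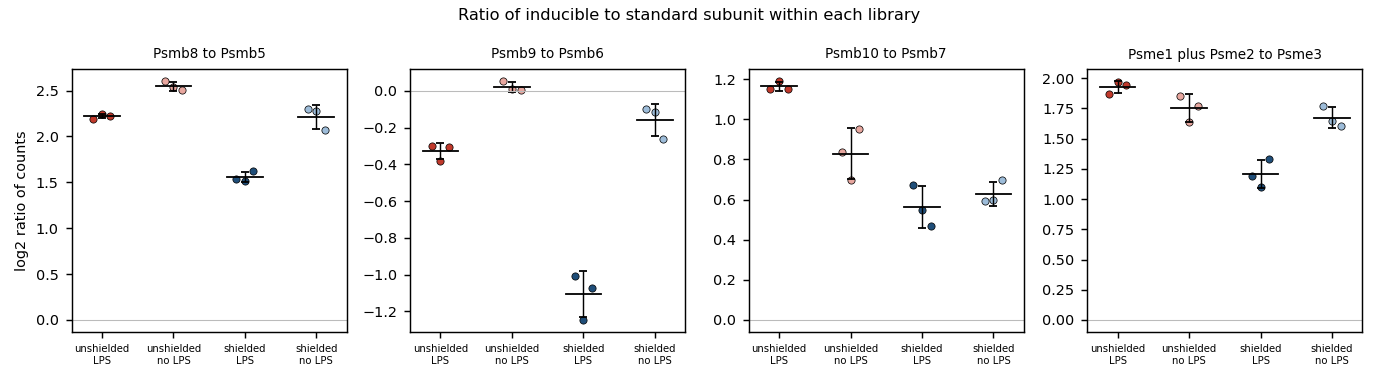
Log2 ratio of counts within each of 12 libraries for 3 inducible subunits over the standard subunit each takes the place of, and for Psme1 plus Psme2 over Psme3; bars are means and whiskers 1 SD (n = 3 per group), and each panel has its own axis. The shielded LPS libraries are the lowest for Psmb9 to Psmb6, at -1.25 to -1.01.

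Per length of the principal transcript the inducible genes were already well expressed without LPS. Psmb8 stood at 48.8 ± 4.73 CPM per kb in unshielded libraries without LPS and 47.5 ± 4.42 CPM per kb in shielded ones (SD, n = 3 each), and Psmb5 at 15.04 ± 0.951 and 18.4 ± 0.539 CPM per kb. Psmb9 was at 45.6 ± 5.08 and 42.7 ± 3.17 CPM per kb, below Psmb6 at 76.1 ± 7.04 and 80.5 ± 1.46 CPM per kb. Psmb10 was at 50.3 ± 3.79 and 53.7 ± 2.57 CPM per kb, above Psmb7 at 32.1 ± 3.29 and 39.3 ± 3.25 CPM per kb. Psme1 was the highest member per length in shielded libraries without LPS, at 104 ± 11.1 CPM per kb. After LPS, Psma6, Psme2 and Psme1 led in shielded mice, at 221 ± 10.1, 218 ± 41.3 and 216 ± 20.2 CPM per kb, and did not differ beyond their spread.

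Unshielded mice had lower proteasome RNA than shielded mice after LPS. In that comparison 39 of 49 members were lower and 1, Psmb9, was higher, where 44.6% of all genes were called, 25.6% lower and 19.1% higher. The members' median log2 fold change was -0.49, against 0.07 over all genes. Values of 41 members were lower in every unshielded LPS library than in any shielded LPS library (27.6% of all genes), and those of Psmb9 were higher in every one (21.8%). Without the 2 conflicting libraries the counts were again 39 and 1, and with these grouped by the field as shielded LPS they were 0 and 1 (2 lower at an unadjusted p under 0.05). The marrow-derived list was 5 of 5 higher in unshielded LPS mice, with log2 fold changes of 2.51 to 4.84, and 6 of 7 microglia markers were lower. Of the astrocyte markers 3 of 5 were higher, with a median of 1.01 and sums of 105.8 to 149.7 CPM in unshielded LPS libraries and 34.5 to 92.1 CPM in shielded LPS libraries. Of the oligodendrocyte markers 1 of 4 and of the endothelial markers 1 of 5 were higher. The shield and these changes in cells cannot be told apart.

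The largest differences after LPS were in a testis form, an activator and a chaperone. Psma8 had 2.60, 3.16 and 2.65 CPM in unshielded LPS libraries, against 7.26, 6.33 and 7.49 CPM in shielded LPS libraries (-1.33 ± 0.23; adjusted p = 0.000555). Psme3 was lower at -1.07 ± 0.11 (adjusted p = 1.77e-05), with the library values given above. Psmg2, which pairs with Psmg1 to start the alpha ring, had 12.1, 10.4 and 9.98 CPM, against 22.1, 19.8 and 19.7 CPM in shielded LPS libraries (-0.92 ± 0.11). None of these groups overlapped. Of the 31 standard 26S subunits 30 were lower, all but Psmb3 at -0.16 (adjusted p = 0.12). The lid subunits Psmd12, Psmd7 and Psmd11 were at -0.90, -0.89 and -0.87. The 3 standard catalytic sites were all lower, Psmb7 at -0.62, Psmb5 at -0.57 and Psmb6 at -0.29. The call of Psmb6 (adjusted p = 0.024) was lost without shielded LPS library 1 or 2 or unshielded LPS library 1 or 3, with adjusted p from 0.0546 to 0.0656. Of the 7 assembly chaperones 6 were lower, and Psmd9 was at 0.12 (adjusted p = 0.313).

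The 5 immunoproteasome genes split in that comparison, with 1 higher, 1 lower and 3 not called. Psmb9 was higher in unshielded LPS libraries at 0.48 ± 0.11 (adjusted p = 0.00266). Psmb8 was at 0.10 (adjusted p = 0.469), Psmb10 at -0.02 (adjusted p = 0.885) and Psme1 at -0.26 (adjusted p = 0.0535), none past the threshold. Psme2 was lower at -0.43 ± 0.12 (adjusted p = 0.0128), a call lost without unshielded LPS library 3 (adjusted p = 0.0507). Psme1 was called lower, at -0.29 to -0.38, when shielded LPS library 3, shielded library 1 or 3 without LPS, unshielded LPS library 2 or any unshielded library without LPS was left out. The median of the 5 was -0.02, against -0.54 for the 44 other members tested.

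Without LPS the shield groups were closer. Of 49 members 5 were lower in unshielded mice and 0 higher (edgeR; 0 higher at an unadjusted p under 0.05 and with DESeq2), where 10.8% of all genes were called, 6.85% lower and 3.98% higher. The median was -0.16, against -0.0032 over all genes. Psmc2, an ATPase, had 63.3, 63.5 and 58.4 CPM in unshielded libraries without LPS, against 78.0, 82.0 and 76.3 CPM in shielded libraries without LPS (-0.35 ± 0.08; adjusted p = 0.0112). Psmc3, another ATPase, had 95.0, 90.9 and 83.7 CPM, against 114, 112 and 105 CPM in shielded libraries (-0.29), and Psmd6, a lid subunit, had 41.4, 40.3 and 38.9 CPM, against 50.0, 50.5 and 47.1 CPM (-0.29). The groups of these 3 genes did not overlap. Psma1 was at -0.26 and Psmd13 at -0.25. Psmc3 shares 215 exon bases with Slc39a13 and Psmd13 342 with Sirt3, on opposite strands. Of the members 25 were lower without overlap, where 19.4% of all genes were lower and 14.2% higher without overlap, and no immunoproteasome gene was called, also at an unadjusted p under 0.05 and with DESeq2. The 5 calls became 0 (8 at an unadjusted p under 0.05) without the 2 conflicting libraries and 0 with these grouped by the field (0 unadjusted). Of the marrow-derived list 5 of 5 were higher and of the microglia markers 5 of 7 lower in unshielded mice here too. The 5 calls also became 1 without shielded LPS library 2, shielded library 1 or 3 without LPS, unshielded LPS library 1 or unshielded library 2 without LPS, 3 without unshielded LPS library 3, and 0 without shielded library 2 or unshielded library 1 or 3 without LPS.

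**Figure D4:**
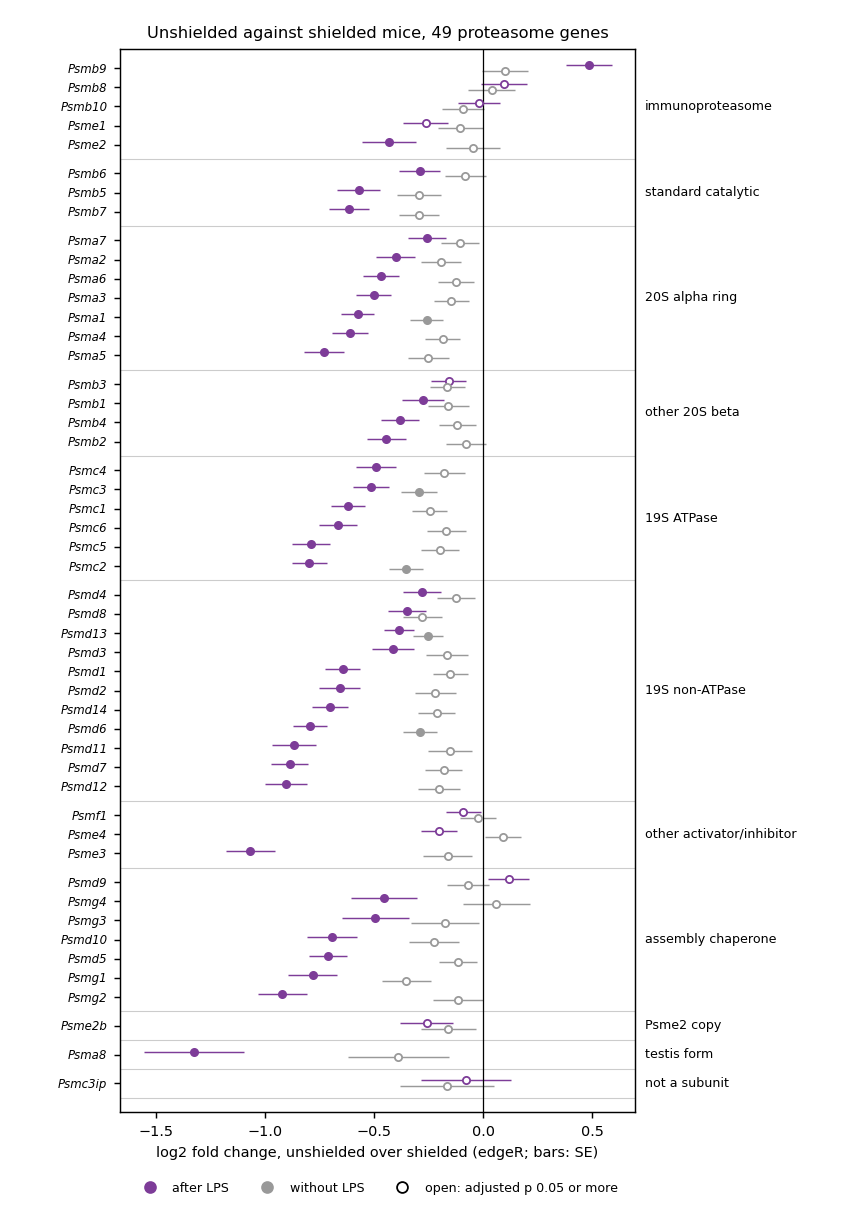
Log2 fold change (unshielded over shielded, edgeR, bars 1 SE) of the 49 tested members by role, after LPS (purple) and without LPS (grey); open points have an adjusted p of 0.05 or more. After LPS 39 members are filled left of 0 and Psmb9, at 0.48, is the member filled right of 0.

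The LPS effect itself differed with the shield for 16 members, each smaller in unshielded than in shielded mice, where 13.3% of all genes were called, 9.25% with the lower sign and 4.06% with the higher. No member had the higher sign (1 at an unadjusted p under 0.05, Psmb9, and 0 with DESeq2). Psme3 rose by 0.92 in unshielded and 1.82 in shielded mice on the log2 scale, a difference of -0.90 ± 0.16 (adjusted p = 0.00382). Psmg2 was at 0.17 in unshielded and 0.98 in shielded mice (-0.81 ± 0.16; adjusted p = 0.00741), and Psmd11 at 0.43 and 1.15 (-0.71 ± 0.14; adjusted p = 0.00753). Of the 16, 7 were 19S non-ATPases (Psmd1, Psmd2, Psmd6, Psmd7, Psmd11, Psmd12, Psmd14), 4 were ATPases (Psmc1, Psmc2, Psmc5, Psmc6), 2 were alpha subunits (Psma4, Psma5), 2 were chaperones (Psmd5, Psmg2) and 1 was Psme3. No beta subunit and 0 of 5 immunoproteasome genes were among them (1 higher and 1 lower at an unadjusted p under 0.05, 0 with DESeq2). Psmb9 was at 0.39 (adjusted p = 0.109), Psmb8 at 0.06 and Psmb10 at 0.08.

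The 16 calls changed with the libraries used. Without shielded LPS library 3, 32 members were called, all lower. Either treatment of the 2 conflicting libraries keeps only library 1 of shielded without LPS. With them left out the value of Psme3 was -0.88, and with them grouped by the field it was -0.44. The calls were lost under either treatment, and a fit with 1 library in a group cannot decide them. Without the filter on low counts 5 were called. In the difference 3 of 5 marrow-derived markers had the higher sign and 1 of 7 microglia markers the lower, and their part in the 16 calls was not tested.

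Genes that work with the proteasome were examined as 38 partners in 6 lists, of which 37 were tested. In unshielded mice LPS raised 25 and lowered 5, where 24.3% of all genes were higher and 18.8% lower, and the median of the partners was 0.46, against -0.06 over all genes. In shielded mice LPS raised 31 and lowered 4, where 32.4% of all genes were higher and 35.1% lower, and the median was 0.74, against -0.14 over all genes. Nfe2l1, a transcription factor that drives the standard subunit genes, had 219, 256 and 209 CPM in unshielded LPS libraries, against 175, 169 and 175 CPM without LPS (0.40 ± 0.12; adjusted p = 0.0172). In shielded mice it had 426, 383 and 301 CPM after LPS, against 171, 170.3 and 159.5 CPM without LPS (1.15 ± 0.12; adjusted p = 4.55e-06), and the difference of the LPS effects was -0.75 (adjusted p = 0.0136). Its groups did not overlap in either pair. Ddi2, the protease that cleaves and frees Nfe2l1, rose by 1.65 in unshielded and 0.83 in shielded mice, with a difference of the opposite sign, 0.82 (adjusted p = 0.0131). Pomp, the chaperone that matures the core, rose by 0.26 in shielded mice and was at 0.20 in unshielded mice (adjusted p = 0.0842). Zfand5, a proteasome-binding protein, rose by 1.49 and 1.52, and Akirin2, needed for nuclear import of proteasomes, was lower at -0.75 and -0.97. Uba6, a ubiquitin-activating enzyme, fell by 0.34 in unshielded mice and rose by 0.85 in shielded mice, with the largest difference of the list at -1.19 (adjusted p = 0.00249).

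Of the 4 interferon regulators 2, Nlrc5 and Irf1, rose with LPS in each pair of groups. Nlrc5, the activator of MHC class I genes and Psmb9, had log2 fold changes of 1.95 in unshielded and 2.48 in shielded mice, the largest rises of the partners. Irf1 was at 0.85 and 1.08, both past the threshold. Irf8, a myeloid lineage factor, was lower at -1.09 in unshielded mice and was not called in shielded mice, at -0.34 (adjusted p = 0.0644). Ciita, the activator of MHC class II genes, was the most reduced, at -1.51 and -2.02. All 8 peptide loading genes rose in each pair of groups. Tap1, a chain of the peptide transporter, had 190.1, 231 and 251 CPM in unshielded LPS libraries, against 83.4, 72.3 and 77.6 CPM without LPS (1.53 ± 0.12), and 228, 204 and 175 CPM in shielded LPS libraries, against 74.4, 74.2 and 67.3 CPM without LPS (1.49 ± 0.12). Tap1 is the neighbour of Psmb9 and shares 212 exon bases with it on the other strand, so reads of the pair could be mixed if strand was not used. Tap2 was at 0.64 and 0.86. Between the shield groups, 23 partners were lower and 3 higher in unshielded mice after LPS, where 25.6% of all genes were lower and 19.1% higher, led by Uba6 at -1.03 and by Ddi2 at 1.13. Without LPS 2 were lower (Akirin2 at -0.52, Pomp at -0.36) and 2 higher (Nlrc5 at 0.80, Ciita at 0.61), where 6.85% of all genes were lower and 3.98% higher, so that the count is near that of all genes.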

How the data were processed

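Counts of reads per gene from 12 bulk libraries were used as deposited. Per the submitters' processing notes, FastQC, STAR, HTSeq and the mm9 build were used; the sources used here give no versions, annotation or strand setting. Totals ran from 18090977 to 60495968 counts per library. Groups follow the titles. Genes were filtered with filterByExpr (minimum count 10, total 15), leaving 18875, and scaled by TMM. One edgeR 4.0.16 quasi-likelihood model over the 4 groups (R 4.3.3) tested each comparison, with Benjamini-Hochberg adjustment and a threshold of 0.05. SE is the absolute log2 fold change over the root of F. Alternatives included DESeq2 1.42.0, other scalings and filters, each library left out, both treatments of the 2 conflicting libraries, and a replicate block. Replicate numbers come from the titles. Deviations of same-numbered libraries from their group means correlated at 0.112, 0.194 and 0.547 between shielded LPS and shielded without LPS. Between the 2 LPS groups the values were -0.264, 0.152 and 0.478, and between the 2 groups without LPS 0.14, -0.0165 and 0.123. Between the unshielded groups they were -0.115, -0.0943 and 0.0199. Whether the numbers pair libraries is not settled by these values. On simulated counts the tests recovered 50 to 51% of 2-fold and 84 to 89% of 4-fold changes, with 6 to 15 false calls per comparison. Replicate libraries differed by more than counting noise (lowest chi-square per degree of freedom 12.5). Of the rows, 254 have no symbol and 12 share one. Biotypes, lengths and exon overlaps come from GENCODE M21 (GRCm38), a different build, whose coordinates were not joined to the counts. By rule, the text names the 5 immunoproteasome genes, Psmb5, Psmb6, Psmb7 and Psme3, the 3 members with the largest called change in each direction of each comparison, members that moved against their role group, and the partners with the largest called changes. Members and lists were chosen with earlier results of these data known. A few genes of the marker and partner lists are not reported here and were left out of their sums and counts.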

Additional observations from a re-analysis of the deposited data

Results flagged for a closer look

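For 16 proteasome genes the LPS effect differed between unshielded and shielded mice by edgeR's test of the interaction, each with a smaller effect in unshielded mice. The differences of the log2 fold changes were -0.90 for Psme3 and -0.81 for the chaperone Psmg2. Among the 19S non-ATPases they were -0.71 for Psmd11, -0.71 for Psmd7, -0.70 for Psmd12, -0.50 for Psmd6, -0.49 for Psmd1, -0.49 for Psmd14 and -0.44 for Psmd2. The chaperone Psmd5 was at -0.60. Among the ATPases they were -0.59 for Psmc5, -0.50 for Psmc6, -0.44 for Psmc2 and -0.37 for Psmc1, and in the alpha ring -0.48 for Psma5 and -0.43 for Psma4. Leaving out the 2 shielded libraries whose treatment field conflicts with their titles keeps only library 1 of shielded without LPS. The differences were then -0.88 for Psme3, -0.79 for Psmg2 and -0.71 for Psmd11. Their calls were lost, and a fit with 1 library in a group cannot decide them. The part of these libraries in the differences, and that of the cells that differ between the shield groups, was not tested.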

How the results depend on the processing

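All alternatives listed were run, and the causes of the changes below were not tested. Of 55 single-gene results, 7 kept their direction and their side of the threshold under every alternative. Among those for LPS effects, every change came with the 2 conflicting libraries grouped by the field, except 2 reversals of Psmb9 in shielded mice. Grouping by the field keeps only library 1 of shielded without LPS, and in Acod1 the conflicting libraries lay far below every LPS library. With the 2 conflicting libraries grouped by the field, members called higher with LPS numbered 0 in unshielded and 0 in shielded mice (0 and 0 of the immunoproteasome), members lower after LPS 0 (0 of the immunoproteasome), and without LPS and in the difference of LPS effects 0 each. That grouping gave differences of LPS effects of 0.10 for Psmb5, 0.12 for Psmb6, 0.10 for Psmb7, 0.28 for Psme1 and 0.14 for Psme2, and values after LPS of 0.28 for Psmb10, 0.011 for Psmb6, 0.042 for Psme1 and 0.0056 for Psme2. Log2 ratios then differed by -0.49 (Psmb8 to Psmb5), -0.64 (Psmb9 to Psmb6) and 0.0052 (Psmb10 to Psmb7) with LPS in shielded mice, and after LPS by 0.42, 0.41 and, for Psme1 plus Psme2 to Psme3, 0.55; that last ratio was -0.017 without LPS, also with these libraries left out. Psmb8 without LPS was -0.078 by the field and -0.086 with them left out, where members lower without LPS and in the difference numbered 0. With library totals, 1 member was lower with LPS in shielded mice (Psmb9, -0.20, the 1 immunoproteasome gene), 9 were lower without LPS, 3 higher after LPS (2 of the immunoproteasome, with 2 lower) and 1 higher in the difference (1 of the immunoproteasome); Psmb10 after LPS was 0.067. With a mean count of at least 100, 12 were lower without LPS, 3 higher after LPS (2 of the immunoproteasome) and 2 higher in the difference (1 of the immunoproteasome); Psmb9 was -0.060 with LPS in shielded mice and Psmb10 0.14 after LPS. Without the low-count filter 1 was lower without LPS and 5 in the difference, and Psmb10 after LPS was 0.029. RLE size factors left 1 lower without LPS. With only the groups compared, 0 immunoproteasome genes were lower after LPS and Psmb10 was 0.030. With the replicate block, 10 members were lower without LPS and 0 immunoproteasome genes lower after LPS, with Psmb10 at 0.032. Whether the numbers pair those groups is not settled.

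Leaving out each library gave 46 to 48 members higher with LPS in shielded and 42 to 44 in unshielded mice, 0 to 6 lower without LPS, 33 to 44 lower after LPS (0 to 2 of the immunoproteasome) and 11 to 32 in the difference (0 to 1 of the immunoproteasome). Values near 0 changed sign. Psmb10 ranged from -0.057 to 0.12 in the difference and from -0.15 to 0.023 after LPS, and Psmb8 from -0.059 to 0.12, from -0.020 to 0.16 and, without LPS, from -0.038 to 0.10.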
